A study of Mus musculus with 7 samples.

Results

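The genes described are those of ceramide breakdown and of the turnover of its product sphingosine: the ceramidases Asah1, Asah2, Acer2 and Acer3, the sphingomyelinases Smpd1, Smpd2 and Smpd4, the sphingosine kinases Sphk1 and Sphk2, and the sphingosine-1-phosphate lyase Sgpl1. They were taken by gene name, and all 10 had a row among the 26019 gene rows of the deposited table. The table gives RNA levels in oocytes freed from secondary follicles, the stage at which a growing oocyte is wrapped in layers of granulosa cells. Each of the 7 libraries was made by Smart-Seq2, a full-length cDNA method for a few cells, from 5 pooled oocytes. The groups are wild type (WT, n = 4) and knockout (KO, n = 3), both on the C57BL/6J strain. The KO group is Mfn2-/- in the design text, whereas its genotype label and the treatment protocol read Mfn1-/-. Both groups were 8 weeks old in the protocol, and the age label of both reads P1. A count of 3 mice per group stands in the design text, beside 4 WT libraries. The sources used here do not give how the allele was deleted, in which cells, or which mouse each library came from. The p-values thus measure the spread between these libraries, which may be technical.

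Sphingomyelinases release ceramide from the membrane lipid sphingomyelin, and ceramidases split ceramide into sphingosine and a fatty acid. Sphingosine kinases phosphorylate sphingosine to sphingosine-1-phosphate, which the lyase cleaves irreversibly in the endoplasmic reticulum. Ceramide is known as a pro-death lipid and sphingosine-1-phosphate as a pro-survival one, and in oocytes this balance has been studied for its part in germ cell death and ovarian reserve.

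Values are normalised counts, that is reads per gene divided by 1 size factor per library, and the libraries held 6676076 to 8343915 reads in genes. The KO libraries were checked first by Mfn2, the gene named in the design text, whose WT mean was 28.7 ± 9.56 (SD, n = 4) and whose KO mean was 6.49 ± 1.70 (SD, n = 3; limma adjusted p = 0.00571). With KO 2 and KO 3 both left out, a single KO library remained and Mfn2 was not called. Its log2 fold change was then -1.77, against -1.94 with all libraries. The adjusted p of Mfn2 over its 18 alternatives was 0.000462 to 0.551. Mfn1, the gene of the genotype label, had 289 ± 36.3 and 330.3 ± 19.9 and did not pass (adjusted p = 0.499). Oocyte markers were abundant in all libraries, with 12 of 12 present and a sum of 24716 to 30067 CPM (reads scaled to equal library totals) in WT and 29213 to 41458 in KO. Granulosa markers summed to 614 to 728 CPM in WT and 669 to 766 in KO, so the sums overlapped. Most of these reads were from Serpine2 (3088 ± 471 normalised counts in WT and 3741 ± 507 in KO). The sums thus say little about the markers with few reads. Of the 15 granulosa markers 0 were called higher and 2 lower, Cyp19a1 (179 ± 28.4 and 78.2 ± 25.1; limma adjusted p = 0.00251) and Esr2 (1013 ± 106 and 722 ± 129; adjusted p = 0.0446). KO 2 and KO 3 were both above every other library for 7 of the 15 granulosa markers and for 5 of the 12 oocyte markers, against 9.88% of all gene rows. Among these, Inhbb and Fst were so only through the size factors. Inhbb had 2 reads in both KO 1 and KO 2, and Fst 1 read in both WT 1 and KO 3. Sums of theca and stroma markers were 1.20 to 3.19 CPM (4 of 9 genes), and of endothelial markers 21.9 to 33.0 CPM (3 of 5 genes). The leukocyte list (7 of 9 genes) was at 74.5 to 80.2 CPM in WT and 25.0 to 40.3 in KO, a fall that lay mostly in C1qb (533 ± 17.1 and 217 ± 39.1; adjusted p = 0.000124). The macrophage markers Adgre1, Lyz2, Tyrobp and C1qa had 0 to 4 reads in WT and 0 in KO, and Cd68 had 12.4 ± 1.58 and 18.4 ± 8.71 (adjusted p = 0.571). Csf1r, the remaining gene of that list, had 8.18 ± 3.80 in WT and 3.28 ± 2.89 in KO (limma adjusted p = 0.215).

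Of the 10 genes, 9 reached 1 normalised count in 3 or more libraries and were tested, with Sphk1 left out by this minimum. Acid ceramidase Asah1 rose in KO, and the other 8 did not pass an adjusted p of 0.05 (limma on log2(value + 1), Benjamini-Hochberg over 19227 genes). With the same test 3.09% of all tested genes were called higher and 3.63% lower. With edgeR and DESeq2 Asah1 was again the 1 member called higher, beside 3.58% and 3.75% of all tested genes. An unadjusted p under 0.05 with a higher KO level was found for 4 of the 9, against 10.6% of all tested genes. Of the members 0 were called lower by limma, edgeR or DESeq2, and 0 had an unadjusted p under 0.05 in that direction. The KO libraries all lay above the WT libraries for Asah1, Acer2, Acer3 and Sgpl1, 4 of the 9 tested, whereas 9.37% of all tested genes had that order. For 0 of the 9 did all KO libraries lie below all WT libraries, against 9.83% of all tested genes. The median log2 fold change of the 9 was 0.36, beside -0.01 over all tested genes. The members that passed the minimum were not all 10, and the median describes only those 9.

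**Figure D1:**
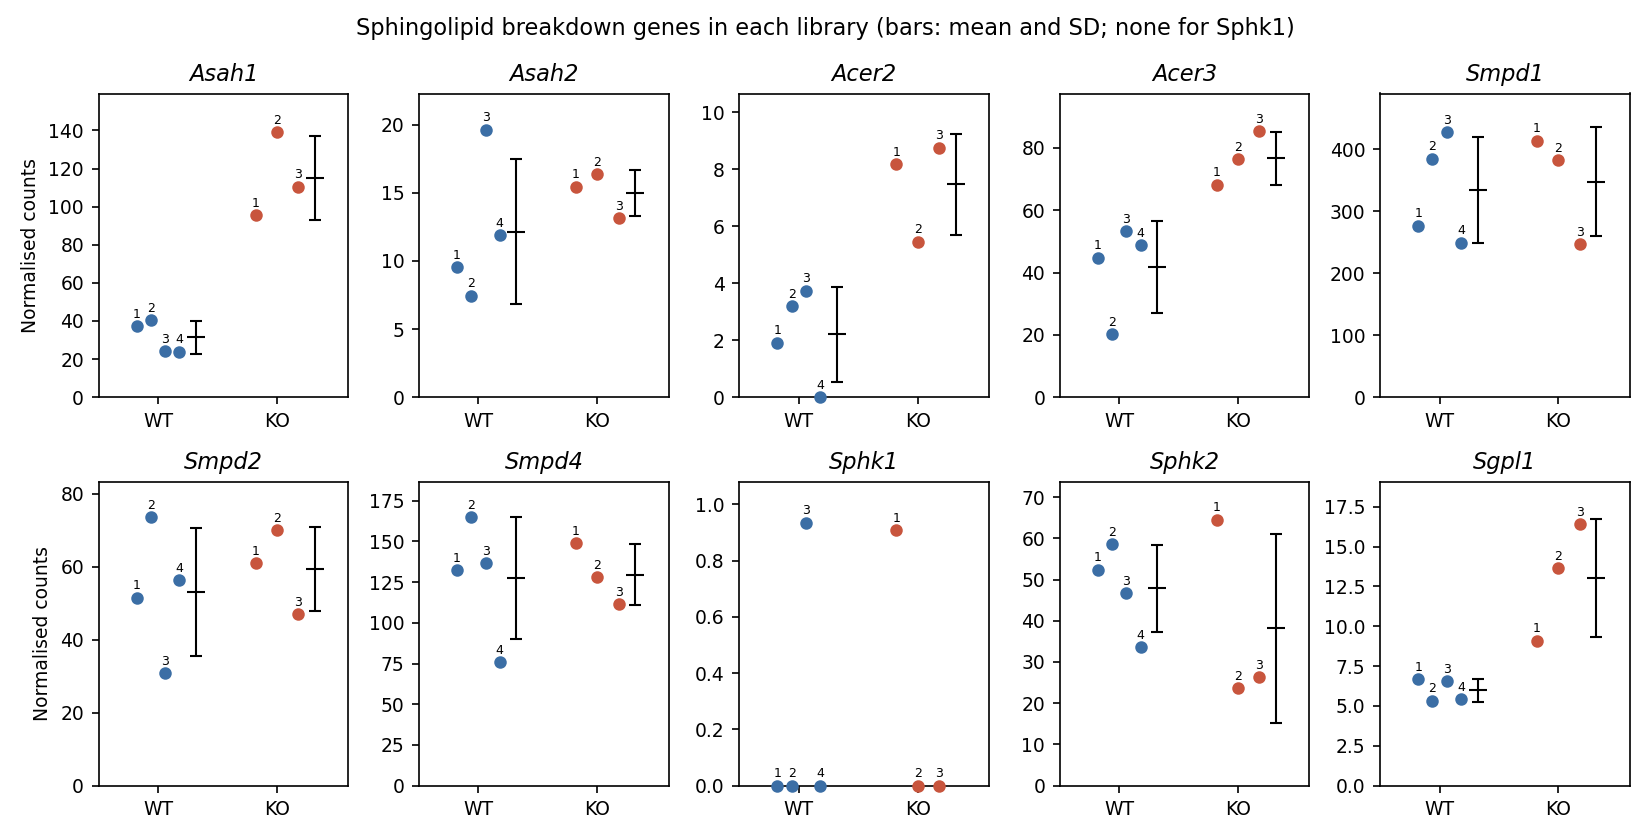
Normalised counts (y axis, from 0 in each panel) of the 10 genes in each WT and KO library, with library numbers beside the points and the mean and SD as bars except for Sphk1. KO points lie above all WT points for Asah1 (95.4 or more against 40.5 or less), Acer2, Acer3 and Sgpl1, and the groups overlap for the other genes.

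Among the ceramidases, Asah1 encodes the lysosomal acid ceramidase (ENSMUSG00000031591.14; GRCm38 chromosome 8, 41340197 to 41374773 in GENCODE M21, minus strand, protein coding). Its normalised counts were 37.2, 40.5, 24.3 and 23.8 in WT 1 to 4 and 95.4, 139 and 110.5 in KO 1 to 3. The lowest KO library was thus above the highest WT library by more than the SD of either group. Means were 31.4 ± 8.63 (SD, n = 4) and 115 ± 22.2 (SD, n = 3), a log2 fold change of 1.86 (SE 0.26, 95% interval 1.31 to 2.41; limma adjusted p = 0.000482). These values rest on 22 to 39 reads per WT library and 101 to 153 per KO library. Exons of no other annotated gene overlap those of Asah1, and 0% of its 75-base stretches occur in transcripts of another gene. The call was kept in each of 7 fits that left out 1 library (log2 fold change 1.71 to 1.99, adjusted p up to 0.00356).

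Some granulosa markers stood apart in KO 2 and KO 3, but not in KO 1, whereas others were high in KO 1. Fshr was highest of all libraries in KO 1, at 49.97 normalised counts against 1.07 to 39.3 in WT. Kitl (47.2 against 17.0 to 43.3) and Nr5a2 (207.1 against 161.7 to 191.6) in KO 1 also lay above all WT libraries. For these genes KO 3 did so too (61.3 and 202.4), while KO 2 did not (39.1 and 171.8). None of Fshr, Kitl and Nr5a2 passed (limma adjusted p = 0.714, 0.203 and 0.821). Inha, an inhibin subunit and the marker with the largest fitted difference among the 13 of 15 tested, had 66.7, 18.1, 23.4 and 11.9 normalised counts in WT 1 to 4 and 54.5, 395 and 338 in KO 1 to 3. KO 1 thus had less Inha than WT 1 but more Fshr, Kitl and Nr5a2, and its Asah1 level was 95.4 against 37.2 in WT 1. Among the KO libraries, Asah1 stood in the same order as Inha, from KO 1 (95.4) over KO 3 (110.5) to KO 2 (139). In WT the orders differed, with the most Asah1 in WT 2 and the most Inha in WT 1. The source of the Asah1 RNA was not tested by these contrasts. Amh, a further granulosa marker, had 0.908 in KO 1, 8.18 in KO 2 and 7.66 in KO 3, with 0 to 0.953 in WT. Other markers of the list were lower in KO, as Cyp19a1 and Esr2 above, and Inhba had 4.38 ± 2.81 and 1.21 ± 1.39 (adjusted p = 0.247). Without KO 2 and KO 3 together, Asah1 had a log2 fold change of 1.61 (adjusted p = 0.0831, the spread of the lone KO library being taken from WT). A fit with the mean of the granulosa markers as a covariate, which called 0 of all 19227 tested genes higher, gave 1.70 for Asah1 (adjusted p = 0.265). Over its 18 alternatives the adjusted p ranged from 5.03e-08 to 0.265. In libraries of pooled cells, more RNA per oocyte and RNA from more cells of another type cannot be told apart.

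**Figure D2:**
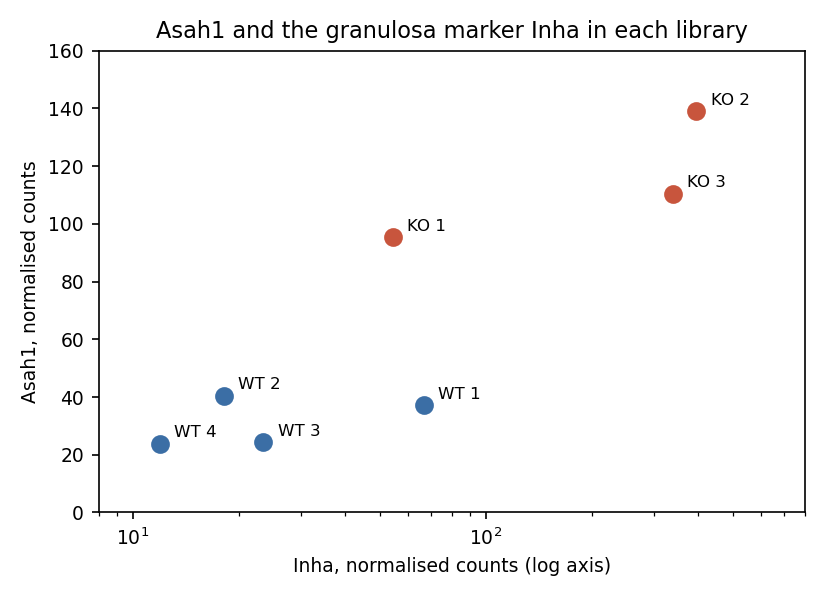
Asah1 (y axis, normalised counts) against the granulosa marker Inha (x axis, normalised counts, log axis) in the 7 libraries, with WT in blue and KO in red. KO 1 lies at an Inha level of 54.5, within the WT range of 11.9 to 66.7, and at an Asah1 level of 95.4, above all WT libraries. Among the KO libraries both genes rise from KO 1 over KO 3 to KO 2. The granulosa markers Fshr, Kitl and Nr5a2, not drawn here, were higher in KO 1 than in all WT libraries.

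The alkaline ceramidases Acer2, of the Golgi, and Acer3, of the endoplasmic reticulum and Golgi, were higher in each KO library but did not pass. Acer3 (ENSMUSG00000030760.14; chromosome 7, 98206389 to 98321208, minus strand) had 44.8, 20.2, 53.3 and 48.7 normalised counts in WT and 68.1, 76.4 and 85.3 in KO. Its WT libraries spread more widely than its KO libraries because WT 2 was low. The log2 fold change was 0.94 (SE 0.30, 95% interval 0.32 to 1.56; limma adjusted p = 0.0613). Acer3 was called without the minimum on low values (adjusted p = 0.0228), and its adjusted p over 18 alternatives ranged from 0.0228 to 0.949. With the granulosa covariate its value was 0.20. Acer2 (ENSMUSG00000038007.14; chromosome 4, 86874396 to 86934822, plus strand) was close to the detection limit, with 2, 3, 4 and 0 reads in WT and 9, 6 and 8 in KO. The log2 fold change of Acer2 was 1.59 (SE 0.60, 95% interval 0.34 to 2.85; adjusted p = 0.116). Neutral ceramidase Asah2, an enzyme of the cell surface (ENSMUSG00000024887.10; chromosome 19, minus strand, 31984654 to 32061470 in the deposited table), had 9.53, 7.46, 19.6 and 11.9 in WT and 15.4, 16.4 and 13.1 in KO. The Asah2 groups overlapped through WT 3, and the difference was 0.36 (SE 0.41, 95% interval -0.49 to 1.20; adjusted p = 0.665). For Acer2, Acer3 and Asah2 alike, the interval on the log2 scale reaches past 1, so a 2-fold rise was within the error of these libraries.

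Per length, ceramidase RNA was mostly Asah1. Counts per kb of exon (merged exons of GENCODE's basic transcript set) of the 4 ceramidases summed to 14.1 to 18.8 in WT and 43.9 to 59.9 in KO. Asah1 made up 71.4%, 81.5%, 53.5% and 60.9% of this sum in WT 1 to 4 and 78.3%, 83.8% and 78.5% in KO 1 to 3. The share in WT 2 was above that in KO 1 and KO 3, so the shares overlapped while the sums did not. In WT 2 Acer3 was low, at 1.77 counts per kb against 3.92 to 4.66 in the other WT libraries.

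**Figure D3:**
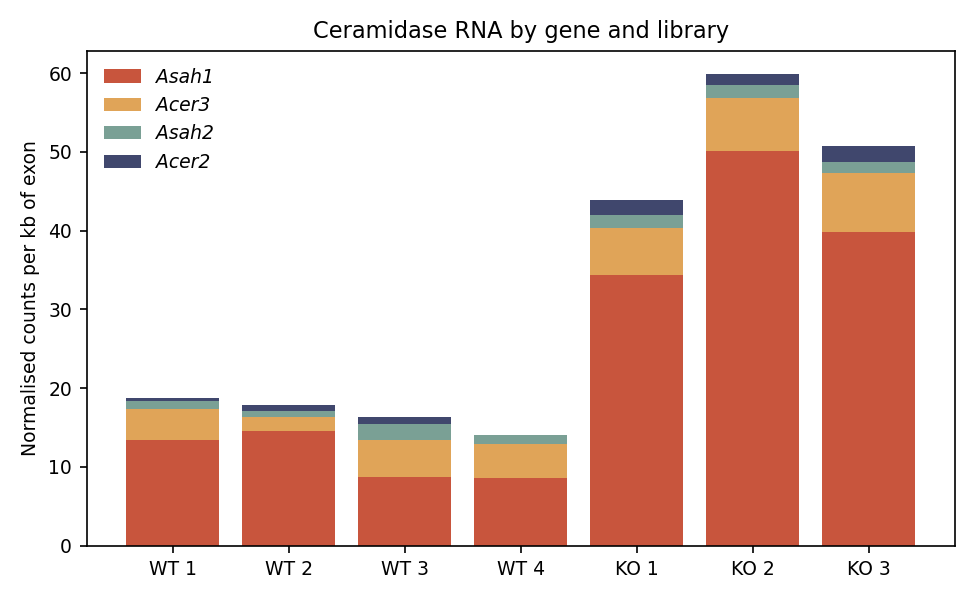
Normalised counts per kb of exon (y axis, from 0) of the 4 ceramidase genes, stacked for each library. The sum is 14.1 to 18.8 in WT and 43.9 to 59.9 in KO, and Asah1 is the tallest segment in every library.

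The 3 sphingomyelinases, which act upstream of the ceramidases, did not pass the test and their groups overlapped. Smpd1, the lysosomal acid sphingomyelinase (ENSMUSG00000037049.9; chromosome 7, 105554360 to 105558389, plus strand), had 276, 385, 427 and 249 normalised counts in WT and 413, 382 and 247 in KO. Means were 334 ± 85.1 (SD, n = 4) and 347 ± 88.2 (SD, n = 3). The log2 fold change of Smpd1 was 0.06 (SE 0.21, 95% interval -0.38 to 0.50; limma adjusted p = 0.912). The upper end of that interval, 1.41-fold, lies below the lower end of the Asah1 interval, 2.48-fold. Smpd1 and Asah1, both of the lysosome, thus had intervals that did not meet, and the difference between the 2 fold changes was not itself tested. Smpd4, a neutral sphingomyelinase (ENSMUSG00000005899.14; chromosome 16, 17619354 to 17644828, plus strand), had 133, 165, 136 and 75.8 in WT and 149, 128 and 112 in KO. WT 4 was low, and the log2 fold change was 0.07 (SE 0.23, 95% interval -0.42 to 0.55; adjusted p = 0.903). Smpd2, a further neutral sphingomyelinase (ENSMUSG00000019822.12; chromosome 10, 41485642 to 41490369, minus strand), had 51.5, 73.5, 30.8 and 56.3 in WT and 60.9, 70.0 and 47.0 in KO (0.20, SE 0.28, 95% interval -0.38 to 0.79; adjusted p = 0.732). Its exons overlap those of Mical1, which had at most 5.45 normalised counts in any library. In the 3 genes the sign of the difference was not stable: without single libraries it ranged from -0.086 to 0.28 for Smpd1, from -0.16 to 0.21 for Smpd4 and from -0.029 to 0.38 for Smpd2.

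Of the sphingosine kinases, the RNA found was that of Sphk2, an enzyme known from the nucleus and mitochondria. Sphk1, the cytosolic kinase (ENSMUSG00000061878.15; chromosome 11, 116530925 to 116536674, plus strand), had 1 read in WT 3, 1 read in KO 1 and 0 in the other 5 libraries. A count of 0 allows up to 3 reads, or 0.360 to 0.449 CPM at these depths, and no fold change is given. Its exons overlap those of the antisense gene Gm29292. Sphk2 (ENSMUSG00000057342.15; chromosome 7, 45709467 to 45718002, minus strand) had 52.4, 58.6, 46.7 and 33.6 normalised counts in WT and 64.5, 23.6 and 26.3 in KO. KO 1 held the most and KO 2 and KO 3 the least of all libraries, so the KO spread (38.1 ± 22.9; SD, n = 3) covered the WT values (47.8 ± 10.7; SD, n = 4). The log2 fold change was -0.44 (SE 0.33, 95% interval -1.12 to 0.24; limma adjusted p = 0.470). It was 0.45 without KO 2 and KO 3 together, 0.37 with the granulosa covariate, and -0.89 without KO 1 (adjusted p = 0.0872), in a range of 0.0872 to 0.900 over 18 alternatives. KO 2 and KO 3 are also the libraries with the most Inha. The exons of Sphk2 overlap those of Dbp and of the ribosomal protein gene Rpl18, which hold 16.4% of its 75-base stretches. The libraries carry no strand, so reads in the overlap cannot be assigned. Rpl18 had 468 ± 67.6 (SD, n = 4) and 454 ± 45.7 (SD, n = 3) normalised counts.

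The lyase gene Sgpl1 (ENSMUSG00000020097.14; chromosome 10, 61098642 to 61147703, minus strand) was low in all libraries and higher in each KO library. It had 6.67, 5.33, 6.54 and 5.42 normalised counts in WT, from 5 to 7 reads, and 9.08, 13.6 and 16.4 in KO, from 10 to 15 reads. Means were 5.99 ± 0.717 (SD, n = 4) and 13.0 ± 3.70 (SD, n = 3), with a log2 fold change of 0.98 (SE 0.44, 95% interval 0.06 to 1.89). The difference did not pass over all genes (limma adjusted p = 0.196), with a range of 0.137 to 0.919 over 17 alternatives. Its KO libraries stood in the order of KO 1 below KO 2 and KO 3, as the granulosa marker Inha did. The log2 fold change was 0.53 without KO 2 and KO 3 together and 0.46 with the granulosa covariate.

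**Figure D4:**
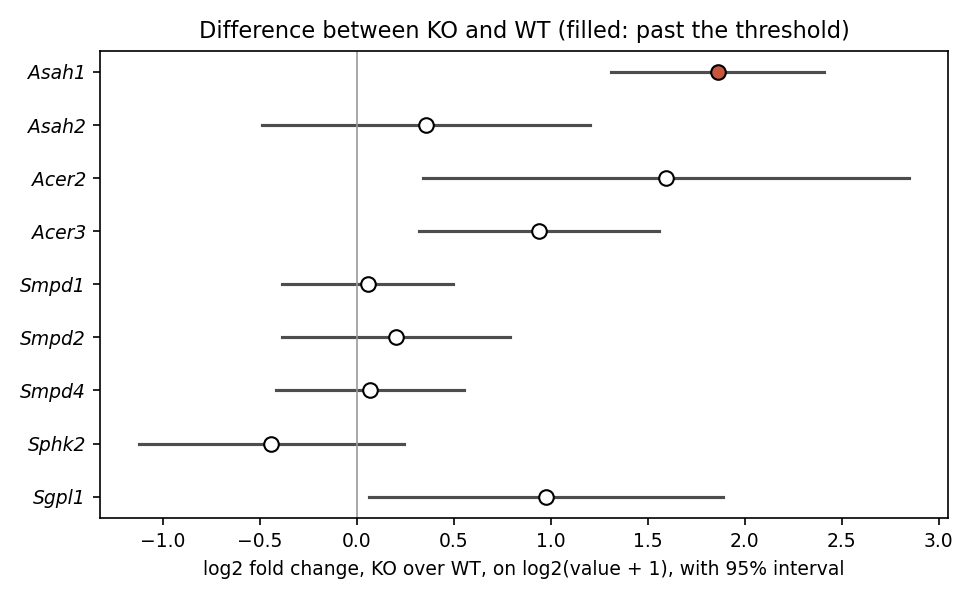
Log2 fold change of KO over WT on the log2(value + 1) scale (x axis) for the 9 tested genes, with 95% intervals as lines. The filled point, Asah1 at 1.86, passed the threshold, and the intervals of Acer2, Acer3 and Sgpl1 lie above 0 before adjustment.

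The order of the levels per length differed between the groups in 1 main point. In WT, Smpd1 was highest with 139 ± 35.3 normalised counts per kb of exon (SD, n = 4), followed by Smpd2 (33.1, with 19.3 to 45.9 over the libraries) and Smpd4 (27.3 ± 8.00), which lay within each other's spread. Next came Sphk2 (11.5 ± 2.56) and Asah1 (11.3 ± 3.11), also within each other's spread, then Acer3 (3.66 ± 1.29). Sgpl1 (1.45 ± 0.174), Asah2 (1.28 ± 0.561) and Acer2 (0.524 ± 0.394) were low, with ranges over the libraries that overlapped between neighbours (0.786 to 2.07 for Asah2 and 0 to 0.887 for Acer2), and Sphk1 was last. In KO, Asah1 stood second with 41.5 ± 8.01 counts per kb (SD, n = 3), behind Smpd1 (144 ± 36.6), and its spread overlapped that of Smpd2 (37.0 ± 7.22), which overlapped that of Smpd4 (27.7 ± 4.01). Sphk2 (9.17, with 5.68 to 15.5 over the libraries) and Acer3 (6.71 ± 0.753) followed with overlapping spreads, then Sgpl1 (3.16 ± 0.895). Acer2 (1.77 ± 0.418) and Asah2 (1.58 ± 0.176) also overlapped in theirs. With all annotated transcripts in place of the basic set Asah1 was again the fifth in WT and the second in KO, while Smpd2 and Smpd4 changed places in both groups, Sgpl1 and Asah2 in WT and Acer2 and Asah2 in KO. Smpd2 then stood at 11.9 per kb in WT, close to Sphk2 at 11.5, so its level per length depends on the transcript set.

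Promoter windows, from 250 bases before to 50 after a transcript start, were read from RefSeq (GRCm38.p6) for 9 of the members, all but Asah1, with 15 windows in all. Those of Acer2, Acer3 and Sgpl1 are shown because their KO libraries were above all WT libraries. Capitals mark the GC box GGGCGG on either strand and the E-box CACGTG, searched as a palindrome. They are given 5′ to 3′ on the gene's strand, from chr4:86874164-86874463 (plus strand) for Acer2, chr7:98309493-98309792 (minus strand, 1 of 2 starts) for Acer3 and chr10:61147635-61147934 (minus strand) for Sgpl1.
Acer2: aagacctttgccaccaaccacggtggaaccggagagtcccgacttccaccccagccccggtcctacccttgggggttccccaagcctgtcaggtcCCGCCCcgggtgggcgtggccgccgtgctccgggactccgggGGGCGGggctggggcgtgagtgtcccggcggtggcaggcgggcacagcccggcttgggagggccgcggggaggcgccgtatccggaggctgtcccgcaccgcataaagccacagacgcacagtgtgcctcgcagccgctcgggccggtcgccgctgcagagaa
Acer3: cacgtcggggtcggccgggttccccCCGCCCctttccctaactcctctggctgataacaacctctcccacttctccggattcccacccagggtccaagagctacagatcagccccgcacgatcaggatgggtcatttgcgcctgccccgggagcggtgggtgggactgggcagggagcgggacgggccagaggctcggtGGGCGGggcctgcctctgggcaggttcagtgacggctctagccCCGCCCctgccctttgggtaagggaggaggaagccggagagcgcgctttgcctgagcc
Sgpl1: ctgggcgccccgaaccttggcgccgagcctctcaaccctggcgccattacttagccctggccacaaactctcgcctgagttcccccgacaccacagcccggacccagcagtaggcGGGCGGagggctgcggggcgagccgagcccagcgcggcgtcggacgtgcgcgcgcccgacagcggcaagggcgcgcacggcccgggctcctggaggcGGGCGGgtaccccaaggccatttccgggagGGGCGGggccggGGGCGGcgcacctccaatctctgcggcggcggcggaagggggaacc
The windows hold 2, 3 and 4 GC boxes and 0 E-boxes, with a GC content of 73.0%, 68.0% and 75.3%. The window at the other Acer3 start (chr7:98321159-98321458, minus strand) holds 0 GC boxes and 0 E-boxes, with a GC content of 47.0%. Over all 32851 windows of this length, 35.7% held a GC box and 7.15% an E-box. A GC box was also present in windows of Smpd1 (4), Smpd2 (4) and Sphk2 (1 and 3), whose groups overlapped, so these letters do not set the 3 genes apart. An E-box was found in Smpd2 and in 2 overlapping windows of Sphk1, which share the same site.

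Genes around this pathway were read from lists of 67 genes, of which 55 were tested, 5 called higher and 5 called lower. Over all tested genes 6.71% were called in either direction. In the lysosomal breakdown of sphingolipids, the compartment of Asah1 and Smpd1, 2 of 12 rose, 0 fell and 10 did not pass. Ctsa encodes cathepsin A, which protects lysosomal β-galactosidase and neuraminidase, and had 33.4, 33.0, 33.6 and 43.3 normalised counts in WT and 71.8, 132 and 56.9 in KO. The log2 fold change of Ctsa was 1.17 (SE 0.28; limma adjusted p = 0.0164). Its call was lost without KO 2 (adjusted p = 0.126, in a range of 0.00237 to 0.687 over 18 alternatives), and its exons overlap those of Neurl2 and Pltp. Gm2a, the GM2 ganglioside activator, had 1.91, 0, 0.935 and 0 in WT and 3.63, 8.18 and 5.47 in KO (adjusted p = 0.0443). Of its WT libraries only WT 1 reached 1 normalised count. Gm2a thus met the minimum for testing only through the KO libraries, where it was high, which favoured a call in that direction. Its adjusted p was 0.0762 with edgeR and up to 0.182 when WT 2, 3 or 4 or KO 2 or 3 was left out, each of which ended the call, in a range of 0.0317 to 0.898 over 15 alternatives. Psap was chosen after its values were seen, because one of its saposins is an activator of acid ceramidase. It had 48.5 ± 6.93 (SD, n = 4) and 71.3 ± 14.0 (SD, n = 3) and did not pass (limma adjusted p = 0.204). The median log2 fold change of the 12 was 0.29.

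Of the genes for sphingosine-1-phosphate phosphatases, export, receptors and later steps, 0 of 14 rose and 2 fell, with a median log2 fold change of -0.06. Both were lipid phosphate phosphatases, which remove phosphate from sphingosine-1-phosphate and from other lipid phosphates. Plpp1 had 262, 253, 421 and 319.5 normalised counts in WT and 124, 111 and 151 in KO, with no overlap of the groups. Its log2 fold change was -1.26 (SE 0.19; limma adjusted p = 0.000688). Exons of Plpp1 overlap those of Mtrex, which holds 21.6% of its 75-base stretches. Plpp3 had 724 ± 51.1 (SD, n = 4) and 518 ± 86.2 (SD, n = 3; adjusted p = 0.0450). Leaving out any library but KO 1 ended the Plpp3 call (adjusted p up to 0.149, in a range of 0.0129 to 0.776 over 18 alternatives). Among other ceramidase and sphingomyelinase genes, Naaa (adjusted p = 0.681) and Smpd3 (0.848) were tested and did not pass. Smpdl3a, chosen after its values were seen, was under the minimum for testing, with 0, 0, 0.935 and 0 normalised counts in WT and 0.908, 8.18 and 15.3 in KO, so that its RNA was found mainly in the 2 libraries with the most Inha.

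Ceramide supply and use had calls in both directions. Of 15 tested genes of de novo ceramide synthesis, 2 rose (Sptssa and Ormdl1) and 2 fell (Sptlc2 and Sptssb), all in serine palmitoyltransferase or its regulators, with a median of -0.09. Of 12 genes of ceramide use and transport, 1 rose and 1 fell, with a median of -0.08. Ugt8a, which makes galactosylceramide, had 48.6, 37.3, 85.1 and 45.5 normalised counts in WT and 103, 85.5 and 127 in KO. Its log2 fold change was 1.00 (SE 0.27; limma adjusted p = 0.0283). Leaving out WT 1, 2 or 4 or KO 3 ended the Ugt8a call (adjusted p up to 0.111, in a range of 0.00572 to 0.734 over 18 alternatives). B4galt6, a lactosylceramide synthase, had 475, 504, 541 and 469 in WT and 393, 253 and 245 in KO (-0.77, SE 0.17; adjusted p = 0.00852). KO 1 was nearer to WT than KO 2 and KO 3, and without those 2 libraries the value was -0.33 (adjusted p = 0.540, in a range of 0.00057 to 0.805 over 18 alternatives). In the fit without KO 2 and KO 3, 2 pathway genes were called in place of 10.

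**Figure D5:**
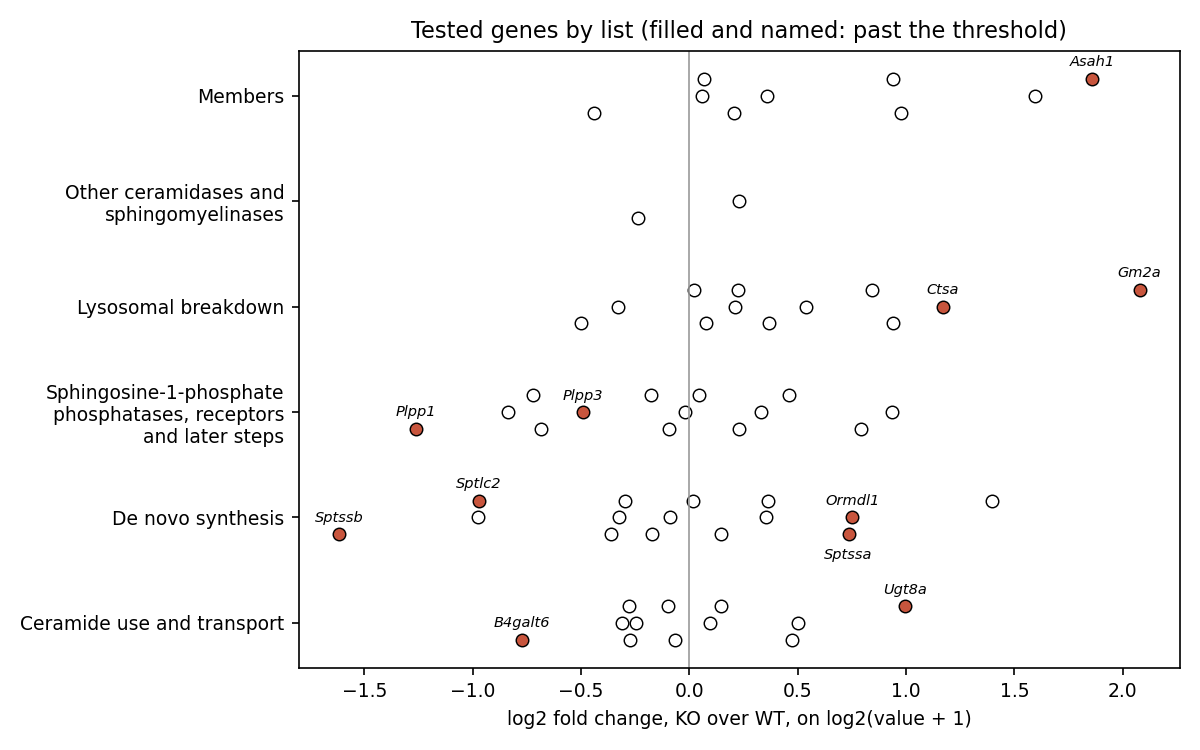
Log2 fold change of KO over WT on the log2(value + 1) scale (x axis) for each tested gene, by list (y axis), with vertical offsets only to separate points. Filled, named points passed the threshold: 1 member, Asah1, and 10 genes of the other lists, 5 to each side of 0.

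The genes with the profile most like that of Asah1 were sought among 10017 genes with a mean of at least 20 normalised counts. The measure was the root mean square difference of log2(value + 1) over the 7 libraries, each gene centred on its own mean. The closest was Mgl2, a C-type lectin gene, at a difference of 0.178. It had 21.9, 26.6, 16.8 and 13.0 normalised counts in WT and 68.1, 80.0 and 89.7 in KO. Eid1 (0.291), Simc1 (0.301), Ddit4l (0.354) and Erlin2 (0.363) followed. The 5 genes were picked for this pattern, so their own differences between the groups are not a further result.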

How the data were processed

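The members and the gene lists were chosen with earlier results of these data known. The deposited signal is the read count of each gene over a size factor of its library. Build GRCm38 (mm10) and the names STAR, cutadapt, FastQC, DESeq2 and DESeq come per the submitters' processing notes, and the sources used here name no counter. Whole reads were recovered: within a library the low values were multiples of 1 step, values below 1000 reads all (100%) lay within 0.05 of a whole number, as did 99.95% or more of all values, and median-of-ratios factors differed from the deposited ones by at most 0.00657%. Per the labels' protocols, libraries were made with Nextera XT, which marks no strand, and read as 75-base pairs.

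The 19227 genes that reached 1 normalised count in 3 or more libraries were tested with limma 3.58.1 (R 4.3.3; trend and robust variance) on log2(value + 1), which understates changes of low genes. A gene is called at an adjusted p under 0.05, over all genes. Fold changes are KO over WT. The count test, edgeR 4.0.16 on recovered reads, called 1334 genes, and DESeq2 1.42.0 was a further alternative. The limma script was tested on simulated counts. Further alternatives changed the pseudocount, minimum, scaling, replicate block, libraries and a granulosa covariate. Exon lengths, overlaps and shared stretches come from GENCODE M21. Named genes were all members, Mfn1 and Mfn2, the called genes of each pathway list (otherwise the 2 with the smallest p) and the 5 genes most like a called member. A gene of the lysosomal list is not reported here by name.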

Additional observations from a re-analysis of the deposited data

Results flagged for a closer look

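Among the 4 WT libraries, a single library lay far from the other 3, by the gap to its neighbour over the whole range, for 4 of 24 genes examined. Chance flags about 1 in 20 groups of normally distributed values, a rate that does not hold for counts near 0. Sphk1 had 0.935 normalised counts in WT 3, which is 1 read, and 0 in the others, so its flag follows from that lone read. Naaa had 46.6 in WT 4 against 69.6 to 71.4 in the others. Ctsa, called higher in KO, had 43.3 in WT 4 against 33.0 to 33.6, which places WT 4 nearer to the KO libraries. Plpp3, called lower in KO, had 648 in WT 2 against 741 to 757, and WT 2 was the WT library nearest to KO.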

How the results depend on the processing

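Asah1 was called higher in 16 of 18 alternatives and kept its direction in all 18 (log2 fold change 1.61 to 1.99). The count of members called higher was 1 as reported, 2 without a minimum on low values and 2 with the replicate block, where Acer3 was added (adjusted p = 0.0473). With the granulosa covariate it was 0, but that fit called 0 of all 19227 tested genes higher. This 0 thus says nothing particular to the members. Without KO 2 and KO 3 together a single KO library was left, and Asah1 was not called, at a log2 fold change of 1.61. The number called lower was 0 in all 18. Same-numbered WT and KO libraries had correlations of their deviations of -0.12, 0.03 and 0.02. These values show no sign of pairing by number, but so few libraries cannot settle whether the numbers pair them. The block called 1022 genes in place of 1291, and Gm2a and Plpp3 lost their calls under it. WT 4 has no same-numbered KO library, so the block gives the same fold changes as leaving out WT 4.

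Genes called over the whole table numbered 594 to 1767 with 1 library left out, 98 without KO 2 and KO 3 together and 1 with the granulosa covariate. Pathway genes called numbered 10 as reported, 7 to 12 with 1 library left out, and 2 and 0 in those same 2 fits. The cause was not tested.

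Directions turned only for genes that were not called. Smpd1 was at -0.073 with the replicate block and at -0.086 to 0.28 with 1 library left out. Smpd4 was at -0.16 with the block, the same value as without WT 4, and at -0.16 to 0.21 with 1 library left out. Smpd2 was at -0.029 to 0.38 with 1 library left out. Sphk2 was at 0.45 without KO 2 and KO 3 and 0.37 with the covariate. Naaa was at -0.043 and -0.059 in these 2 fits and -0.12 to 0.44 with 1 library left out, and Smpd3 at 0.41, 0.45 and -0.56 to 0.13. Depth limits Acer2, Sgpl1 and Gm2a, which had at most 15 reads per library, and Sphk1, which had at most 1.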
